A study of Mus musculus with 16 samples.

Results

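The genes of the GATA factors Gata2, Gata3, Gata4, Gata5 and Gata6 were followed through the peak lists of a chromatin immunoprecipitation and sequencing (ChIP-seq) study of PCGF5 in embryonic stem cells of the mouse (ES) and in their neural derivatives (NPC). They are 5 of the 22232 protein-coding gene names of the GENCODE M1 annotation and were taken by name. No measured value was a criterion, but earlier results of these data were known when they were chosen. For each gene, all peaks with a centre within 2500 bp of an annotated protein-coding start site were counted as promoter peaks, and their full widths were summed as the covered length in bp. Peaks over the gene body were described as well.

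Peak lists were at hand for 10 of the 16 libraries, and the 6 inputs were not analysed here. Lists for H2AK119ub1 (ubiquitinated histone H2A) and H3K27me3 (trimethylated histone H3) came from wild type and PCGF5-depleted cells at both stages, which gave 8 lists. PCGF5-depleted cells carried the genotype label shPCGF5, a short hairpin RNA against Pcgf5, and the methods describe such lines as clones picked after puromycin selection, although they also describe a nuclease knockout. The other 2 lists were for PCGF5 itself, pulled down through a Flag tag from cells labelled wild type in which the Pcgf5 gene was tagged by knock-in. All cells derived from a mouse ES line with a green fluorescent reporter for neural cells. ES were grown with leukaemia inhibitory factor and inhibitors that hold the ground state, and NPC were taken at day 6 of differentiation in suspension. Each group had 1 library, so no value below has a replicate error and no test between groups was possible. Peaks carry no expression values, so the depletion of PCGF5 itself was not checked here. Read totals are not given in the lists, so depth is unknown, and a missing peak says only that none was called. The lists held between 3845 and 14759 histone peaks, with 653 peaks for Flag-PCGF5 in ES and 12013 in NPC.

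GATA factors are zinc finger transcription factors that bind the short DNA word GATA. Gata2 and Gata3 are best known from blood stem cells, T cells, the trophoblast and some neurons, while Gata4, Gata5 and Gata6 act in the heart and in the endoderm, where Gata4 and Gata6 drive the primitive endoderm fate in early embryos and in ES cells. Polycomb repressive complex 1, in which PCGF5 is one of the alternative subunits, places H2AK119ub1, and Polycomb repressive complex 2 places H3K27me3. Both marks are typically found at CpG-rich promoters of developmental regulators such as these in cells of another fate.

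On the mm9 assembly, Gata2 (ENSMUSG00000015053) lay at chr6:88143885-88157024 on the plus strand with 2 start sites, at 88143885 and 88148658. Gata3 (ENSMUSG00000015619) lay at chr2:9778705-9811661 on the minus strand with 2 start sites, at 9811661 and 9800227. The Gata3 windows also held starts of the protein-coding gene 9230102O04Rik and of the non-coding Gm13256, so peaks there cannot be given to Gata3 alone. Gata4 (ENSMUSG00000021944) was the longest, at chr14:63817759-63890529 on the minus strand, with 6 start sites that merge into 3 windows. Gata5 (ENSMUSG00000015627) lay at chr2:180059838-180069404 on the minus strand, and its window held the start of the oppositely transcribed Gm14318. Gata6 had 1 start site, with the start of the non-coding 1010001N08Rik beside it. Of the 161 promoter peaks of the 5 genes in all lists, 89 had their centre in an intron and 46 outside the gene, so the marks lay mostly beside and behind the start sites rather than in coding exons.

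The 250 bp before a start site are shown for 4 of the genes. Histone or Flag-PCGF5 peaks described below cover these stretches in whole or in part. That of Gata6 is not printed, although H3K27me3 of wild type NPC and Flag-PCGF5 of NPC each covered all 250 bp of it. CpG dinucleotides, whose density differs between these promoters, are in capitals and all else is in lower case.
Gata2 (chr6:88148408-88148657, plus strand): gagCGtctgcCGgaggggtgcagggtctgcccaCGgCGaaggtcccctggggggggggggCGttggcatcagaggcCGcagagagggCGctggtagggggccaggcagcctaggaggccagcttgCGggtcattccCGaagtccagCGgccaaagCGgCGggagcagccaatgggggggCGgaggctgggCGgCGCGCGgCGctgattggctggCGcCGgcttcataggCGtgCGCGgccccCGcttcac
Gata3 (chr2:9811662-9811911, minus strand): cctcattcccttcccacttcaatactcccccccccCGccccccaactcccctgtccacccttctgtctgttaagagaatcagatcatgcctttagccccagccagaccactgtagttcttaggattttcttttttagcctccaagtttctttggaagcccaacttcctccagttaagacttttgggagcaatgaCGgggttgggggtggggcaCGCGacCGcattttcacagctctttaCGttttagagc
Gata4 (chr14:63864086-63864335, minus strand): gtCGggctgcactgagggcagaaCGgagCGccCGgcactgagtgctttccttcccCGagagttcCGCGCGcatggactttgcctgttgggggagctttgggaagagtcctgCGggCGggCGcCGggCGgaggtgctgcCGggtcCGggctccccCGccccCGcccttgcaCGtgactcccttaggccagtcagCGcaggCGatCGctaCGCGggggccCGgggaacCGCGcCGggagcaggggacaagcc
Gata5 (chr2:180069405-180069654, minus strand): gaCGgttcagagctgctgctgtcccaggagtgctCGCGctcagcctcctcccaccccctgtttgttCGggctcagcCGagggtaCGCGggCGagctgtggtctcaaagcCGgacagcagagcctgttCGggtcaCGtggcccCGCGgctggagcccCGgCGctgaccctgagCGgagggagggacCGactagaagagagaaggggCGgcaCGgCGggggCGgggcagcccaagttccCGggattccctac

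The stretch of Gata2 held 24 CpG, that of Gata4 27 and that of Gata5 22, against a median of 9 over 45968 annotated start sites with sequence. The far upstream start of Gata3 held 6 CpG, fewer than the median, whereas its inner start at 9800227 held 19. Gata4 also had starts below the median, at 63832444, 63889961 and 63890529, with 4, 1 and 6 CpG. Gata6 held 11 in the same stretch but 294 within 2500 bp of its start, and 99.2% of start sites had fewer in a window of that size. The word AGATAA, to which GATA factors bind, was searched on both strands together with the related TGATAA, the form AGATAG and lastly TGATAG. At least 1 of these was found at 23.1% of all start sites. They were absent from the 4 stretches printed, and among all 13 start sites of the 5 genes only the most upstream one of Gata4 held any, with 2.

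The printed stretches differed in which lists covered them. All 250 bp of the Gata2 stretch lay within H3K27me3 peaks of both genotypes in NPC and 122 bp within the Flag-PCGF5 peak of NPC, and no ES list or H2AK119ub1 list touched it. All 250 bp of the Gata5 stretch lay within H3K27me3 of both genotypes in NPC and within the Flag-PCGF5 peak. In ES, H3K27me3 covered 11 bp of the Gata5 stretch in wild type and all 250 bp after depletion. At Gata3, H3K27me3 covered 110 bp in NPC of the wild type and 250 bp in PCGF5-depleted NPC. H2AK119ub1 covered 61 bp there in wild type NPC and none after depletion. In wild type ES, H3K27me3 covered 66 bp of the Gata3 stretch. The Gata4 stretch was covered in full by H3K27me3 in wild type NPC and not at all in PCGF5-depleted NPC. In ES, H3K27me3 covered 166 bp of it in wild type and all 250 bp after depletion. H2AK119ub1 covered 58 bp of it in wild type ES.

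The first comparison asked where the marks stood in wild type ES. All 5 genes had promoter peaks of H2AK119ub1 and of H3K27me3, against 6.69% and 13.4% of all protein-coding genes. After PCGF5 depletion all 5 again carried both, against 5.96% and 12.9%. In wild type ES the H2AK119ub1 covered length was 2383 bp at Gata2, 2029 bp at Gata4, 1169 bp at Gata6, 1010 bp at Gata5 and 315 bp at Gata3. Gata2 thus ranked 48 among 1488 marked genes, while Gata3 stood near the middle. H3K27me3 in the same cells covered 3852 bp at Gata2, 1496 bp at Gata5, 1366 bp at Gata4, 1254 bp at Gata6 and 591 bp at Gata3, so Gata2 was again first and Gata3 last.

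In NPC the picture split. H3K27me3 remained at all 5 genes in both genotypes, against 15.7% of all genes in wild type and 15.4% in PCGF5-depleted cells. H2AK119ub1 was found at 4 of the 5, against 4.98% and 4.17%, since no H2AK119ub1 peak was called at Gata5 in NPC of either genotype. Gata2 and Gata3 gained the most H2AK119ub1 on differentiation of wild type cells, as the plot of covered length by gene and list shows.

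**Figure D1:**
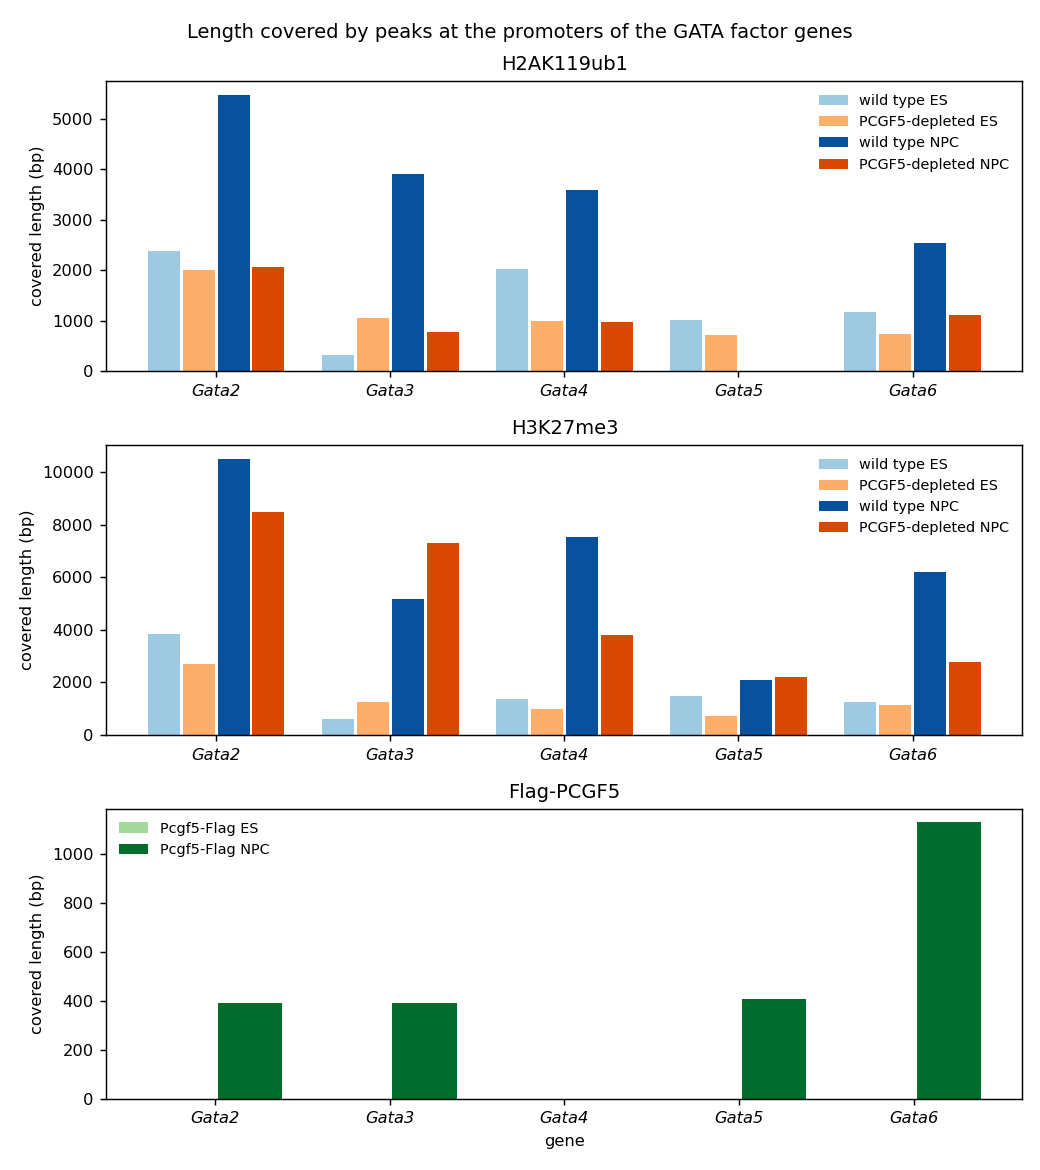
Covered length in bp (vertical axis, linear from 0, scaled separately per panel) of promoter peaks at each of the 5 genes (horizontal axis) for H2AK119ub1, H3K27me3 and Flag-PCGF5; each bar is 1 library, coloured by genotype and stage. In the H2AK119ub1 panel the wild type NPC bar stands above the PCGF5-depleted NPC bar at Gata2, Gata3, Gata4 and Gata6, and Gata5 has no NPC bar; Flag-PCGF5 has bars in NPC only.

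Between ES and NPC of the wild type, the summed H2AK119ub1 covered length of the 5 genes went from 6906 to 15482 bp, a log2 ratio of 1.16, while the same ratio over all genes was 0.25. It was higher by at least 2 times at 3 of 5 genes, Gata2, Gata3 and Gata6, against 35.7% of genes marked at either stage. With a window of 1000 bp the log2 ratio was 0.45. Gata5 went the other way, from 1010 bp to 0, and lower calls made up 50.7% of genes marked at either stage. In PCGF5-depleted cells the sum went from 5511 to 4929 bp, with none of the 5 genes higher by 2 times, against 26.7%, and Gata5 again going to 0, against 54.2% lower. The log2 ratio there was -0.16, against -0.53 over all genes, and its sign depended on the peaks counted. It was 0.26 for a window of 1000 bp and 1.16 with equal numbers of top-scoring peaks. With those equal numbers the wild type ratio was 1.46, so both genotypes then showed a gain.

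The H2AK119ub1 peaks of wild type ES at these genes were largely still in place in NPC at Gata2, Gata4 and Gata6. Over gene and promoter window, 70.0% of the ES base pairs of all 5 genes lay in NPC peaks, whereas 19.7% did over all protein-coding loci. The share was 92.9% at Gata2, 85.0% at Gata4, 74.1% at Gata6, 22.8% at Gata3 and 0 at Gata5. In PCGF5-depleted cells it was 21.0% over the 5 genes and 19.0% over all loci. Since 4.98% of all genes had any H2AK119ub1 promoter peak in wild type NPC, the share over all loci is not a matched comparison. Shares over all loci given below are likewise unmatched.

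The comparison of genotypes in NPC asked what PCGF5 depletion left of the marks after neural differentiation. H2AK119ub1 covered length was lower in PCGF5-depleted NPC by at least 2 times at all 4 genes that carried it, Gata2, Gata3, Gata4 and Gata6, against 51.8% of genes marked in either list. None of the 4 was higher, against 29.0%. The sum fell from 15482 to 4929 bp, a log2 ratio of -1.65, compared with -0.92 over all genes. The number of peaks went from 31 to 15. The sum was lower under each of the 6 alternative ways of counting, with log2 ratios between -2.24 and -1.48.

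The fold enrichment of the peaks that were called stood, as a median, at the 72.0 percentile of the wild type NPC list and at the 57.8 percentile of the PCGF5-depleted one. The lists themselves differed in the same direction, with 5754 peaks in wild type and 3845 in PCGF5-depleted NPC, and the log2 ratio was -1.48 when both were cut to equal numbers of their best peaks. The peaks left after depletion lay mostly inside those of wild type. Of their base pairs, 74.0% lay in wild type peaks, against 41.4% over all loci, while 16.2% of the wild type base pairs remained covered, against 21.4%.

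H3K27me3 did not follow this pattern. In NPC the sum went from 31506 bp in wild type to 24606 bp in PCGF5-depleted cells, a log2 ratio of -0.36, and the ratio over all genes was also -0.36. Only Gata6 was lower by at least 2 times, 1 of 5 genes against 34.1%, and none was higher, against 23.7%. Peak numbers moved in the opposite direction, from 15 to 27, and the median width was 1697 bp in wild type and 459 bp after depletion. Of the wild type H3K27me3 base pairs, 71.3% remained covered in PCGF5-depleted NPC, against 55.0% over all loci, and 92.8% of those of PCGF5-depleted NPC lay in wild type peaks, against 66.9%.

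**Figure D2:**
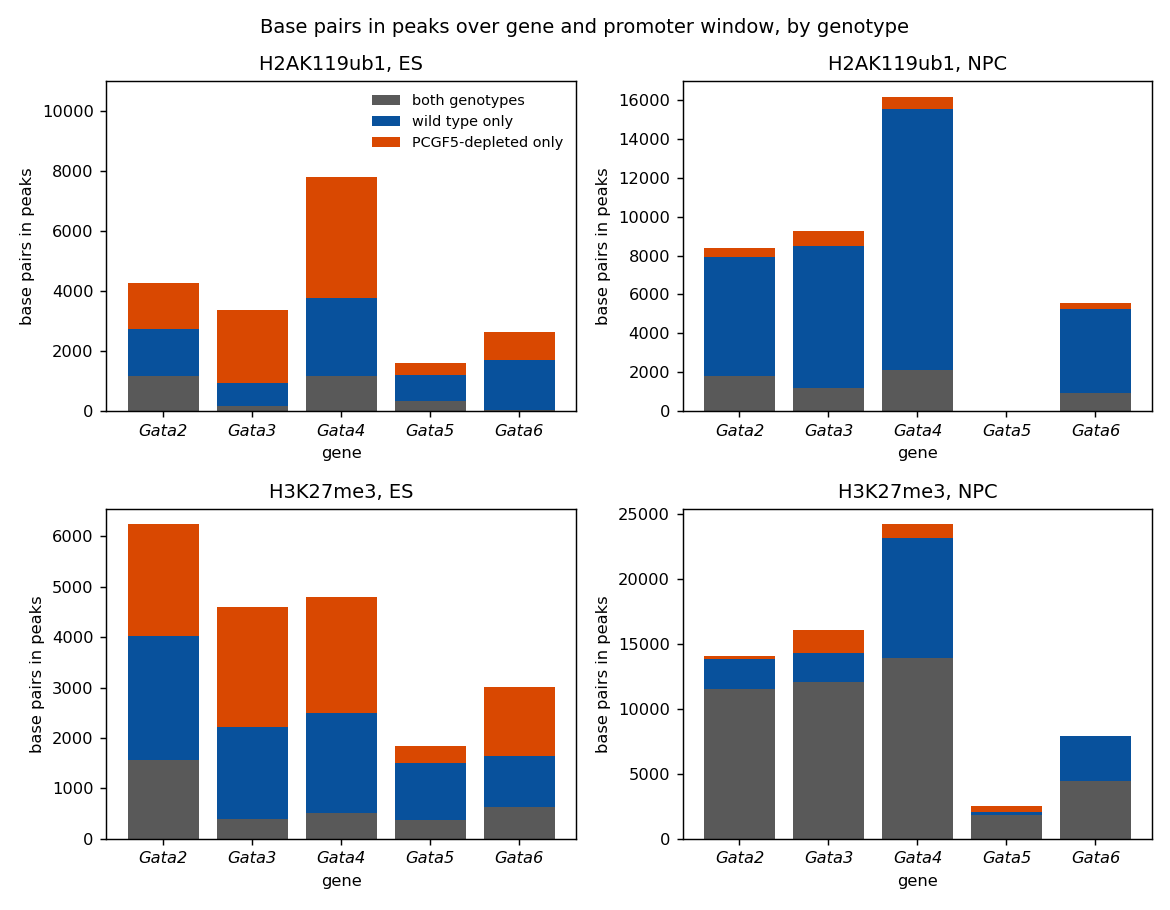
Base pairs in peaks over each gene and its promoter window (vertical axis, linear, scaled per panel) for each mark and stage, split into those in peaks of both genotypes, of wild type only and of PCGF5-depleted only; each panel sets 1 library against 1 library. In NPC the H2AK119ub1 bars are mostly wild type only, with 16.2% of wild type base pairs shared, while the H3K27me3 bars are mostly shared, with 71.3%.

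H3K27me3 widened from ES to NPC in both genotypes. The sum went from 8559 to 31506 bp in wild type, a log2 ratio of 1.88 against 1.43 over all genes, and 4 of 5 genes were higher by at least 2 times, against 60.3%. In PCGF5-depleted cells it went from 6781 to 24606 bp, a log2 ratio of 1.86 against 1.25, with 5 of 5 higher, against 56.9%. No gene was lower by 2 times in either genotype, against 21.5% in wild type and 19.6% after depletion. Of the ES base pairs, 92.1% in wild type and 80.0% in PCGF5-depleted cells lay in NPC peaks, compared with 55.2% and 48.4% over all loci.

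In ES the genotypes differed in sums whose size and sign depended on the counting. H2AK119ub1 covered 6906 bp in wild type and 5511 bp in PCGF5-depleted ES, with Gata4 lower and Gata3 higher by at least 2 times, 1 of 5 each, against 43.5% and 33.6%. H3K27me3 covered 8559 and 6781 bp, with Gata5 lower and Gata3 higher, again 1 of 5 each, against 34.5% and 27.7%. Counted over the gene body both sums were higher after depletion, with log2 ratios of 0.25 and 0.06. The H2AK119ub1 ratio was -0.33 as reported, -1.53 with a window of 1000 bp and -1.18 with the higher-scoring 50% of peaks, so no direction is given for ES. The median fold percentile of H2AK119ub1 peaks was 82.9 in wild type and 20.7 in PCGF5-depleted ES, the widest gap between any pair of lists in the plot of fold percentiles.

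**Figure D3:**
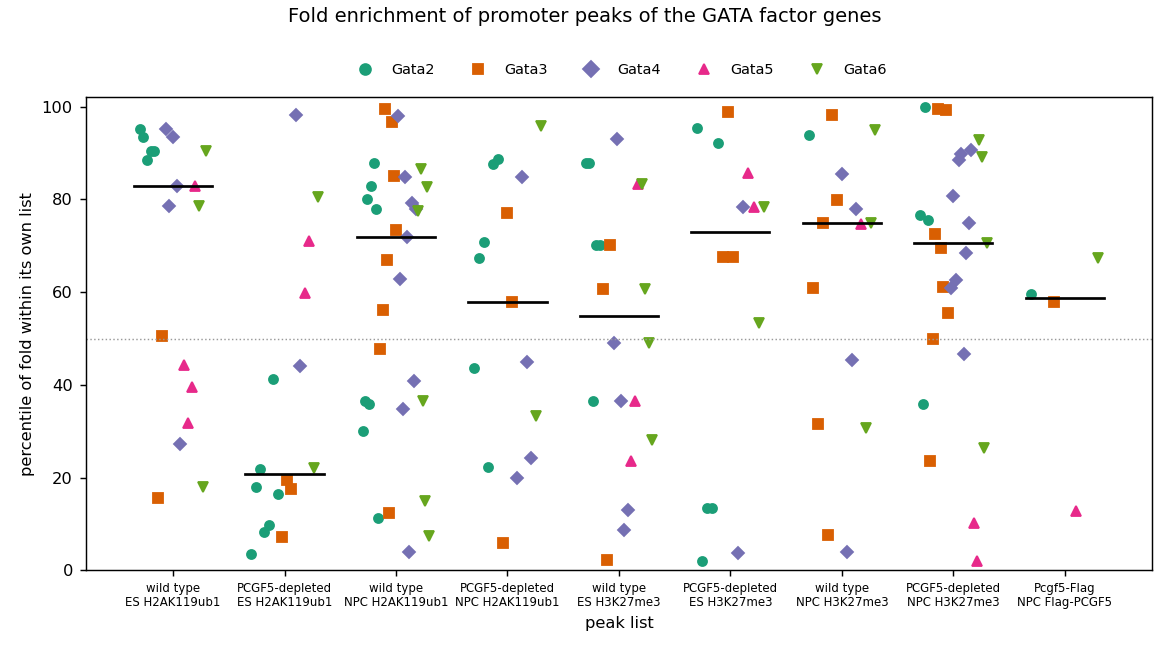
Percentile of the fold enrichment of each promoter peak within its own list (vertical axis, 0 to 100) in the 9 lists that hold any (horizontal axis); each point is 1 peak, shaped and coloured by gene, black lines are medians over the peaks, and the dotted line marks 50. The H2AK119ub1 median is 82.9 in wild type ES and 20.7 in PCGF5-depleted ES, and the other medians lie above 50.

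Gata2, a regulator of blood stem cells that is also used in neurons, had the longest promoter cover of the family in all 8 histone lists. The windows differed, with 9774 bp at Gata2, 10002 bp at Gata3, 15594 bp at Gata4, 5146 bp at Gata5 and 5001 bp at Gata6. A longer window can hold more peaks, so covered lengths are not matched between members or with other genes. Over the gene body Gata4 was ahead of Gata2 in wild type NPC, with 23190 bp of H3K27me3 against 11622 bp. At Gata2 the H2AK119ub1 covered length was 2383 bp in wild type ES, 2004 bp in PCGF5-depleted ES, 5471 bp in NPC of the wild type and 2061 bp in PCGF5-depleted NPC. The value of wild type NPC thus stood apart from the other 3, which lay close together, and the log2 ratio in NPC was -1.41. H3K27me3 covered 3852, 2700, 10512 and 8496 bp in the same order. In wild type NPC this was a single peak at chr6:88142660-88153171 that spanned both start sites, with a fold at the 93.9 percentile of its list. In PCGF5-depleted NPC this span held 5 separate peaks, the widest of 4322 bp, and 3 of these were among the 4 promoter peaks counted.

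Gata3, which directs T cell fate and trophoblast development, had the largest ratios of NPC to ES in wild type cells for both marks, at log2 values of 3.63 and 3.13. H2AK119ub1 covered 315 bp in wild type ES, 1050 bp in PCGF5-depleted ES, 3902 bp in NPC of the wild type and 778 bp in PCGF5-depleted NPC. Wild type was therefore the lower genotype in ES and the higher in NPC, with log2 ratios of 1.74 and -2.33. In wild type NPC the strongest H2AK119ub1 promoter peak of the family, with a fold of 9.54, was centred at -543 bp from the distal start. H3K27me3 covered 591, 1240, 5159 and 7295 bp, which makes Gata3 the gene with the highest NPC value after depletion relative to wild type, at a log2 ratio of 0.50. That sign rests on the window edge, since a wild type NPC peak of 4822 bp had its centre 3106 bp from the start and was not counted. With all base pairs inside the window counted, the log2 ratio was -0.05.

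Peaks just inside and just outside the window show how sharp this edge is. The outermost peak counted was an H2AK119ub1 peak of 537 bp in wild type NPC with its centre 2486 bp from a Gata4 start. The nearest one left out was an H3K27me3 peak of 383 bp in wild type ES, 2512 bp from the Gata6 start.

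Gata4, needed for heart and endoderm, was marked around its inner starts between 63864085 and 63864108. In most histone lists it was also marked near its most upstream start. No list had a peak in the window of the inner start at 63832444. H2AK119ub1 covered 2029 bp in wild type ES, 998 bp in PCGF5-depleted ES, 3580 bp in NPC of the wild type and 975 bp in PCGF5-depleted NPC. At the promoter the PCGF5-depleted libraries were thus below the wild type ones, and the NPC log2 ratio was -1.88. Over the gene body the ES order was the reverse, with 3785 bp in wild type and 5188 bp in PCGF5-depleted ES, and in NPC the ratio was -2.62, where wild type NPC had 26 H2AK119ub1 peaks centred in the gene against 11 after depletion. H3K27me3 covered 1366, 980, 7538 and 3816 bp in the same order, with 4 peaks in wild type NPC and 9 in PCGF5-depleted NPC. The H3K27me3 ratio in NPC was -0.98, just short of 2 times.

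Gata5, expressed in endocardium and gut endoderm, differed from the other members. H2AK119ub1 covered 1010 bp in wild type ES and 725 bp in PCGF5-depleted ES, and no peak was called in NPC of either genotype. H3K27me3 covered 1496, 714, 2091 and 2224 bp, the shortest NPC values of the family in both genotypes. Within 50000 bp of its start no H2AK119ub1 peak of wild type NPC was called, and PCGF5-depleted NPC had 1 of 138 bp, centred at -5601 bp. The H3K27me3 peaks of PCGF5-depleted NPC were weak for their list, with the highest fold at the 10.2 percentile, while the single peak of wild type NPC stood at the 74.7 percentile of its own.

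Gata6 (ENSMUSG00000005836), which drives the primitive endoderm program, lies at chr18:11052508-11085633 on the plus strand. It had H2AK119ub1 over 1169 bp in wild type ES, 734 bp in PCGF5-depleted ES, 2529 bp in NPC of the wild type and 1115 bp in PCGF5-depleted NPC. The NPC value of wild type was again the highest of the 4, and the log2 ratio in NPC was -1.18, the smallest fall of the 4 marked genes. H3K27me3 covered 1254, 1147, 6206 and 2775 bp. Gata6 was the only member with H3K27me3 lower by at least 2 times in PCGF5-depleted NPC, at a log2 ratio of -1.16, and this ratio was -0.68 when base pairs inside the window were counted.

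**Figure D4:**
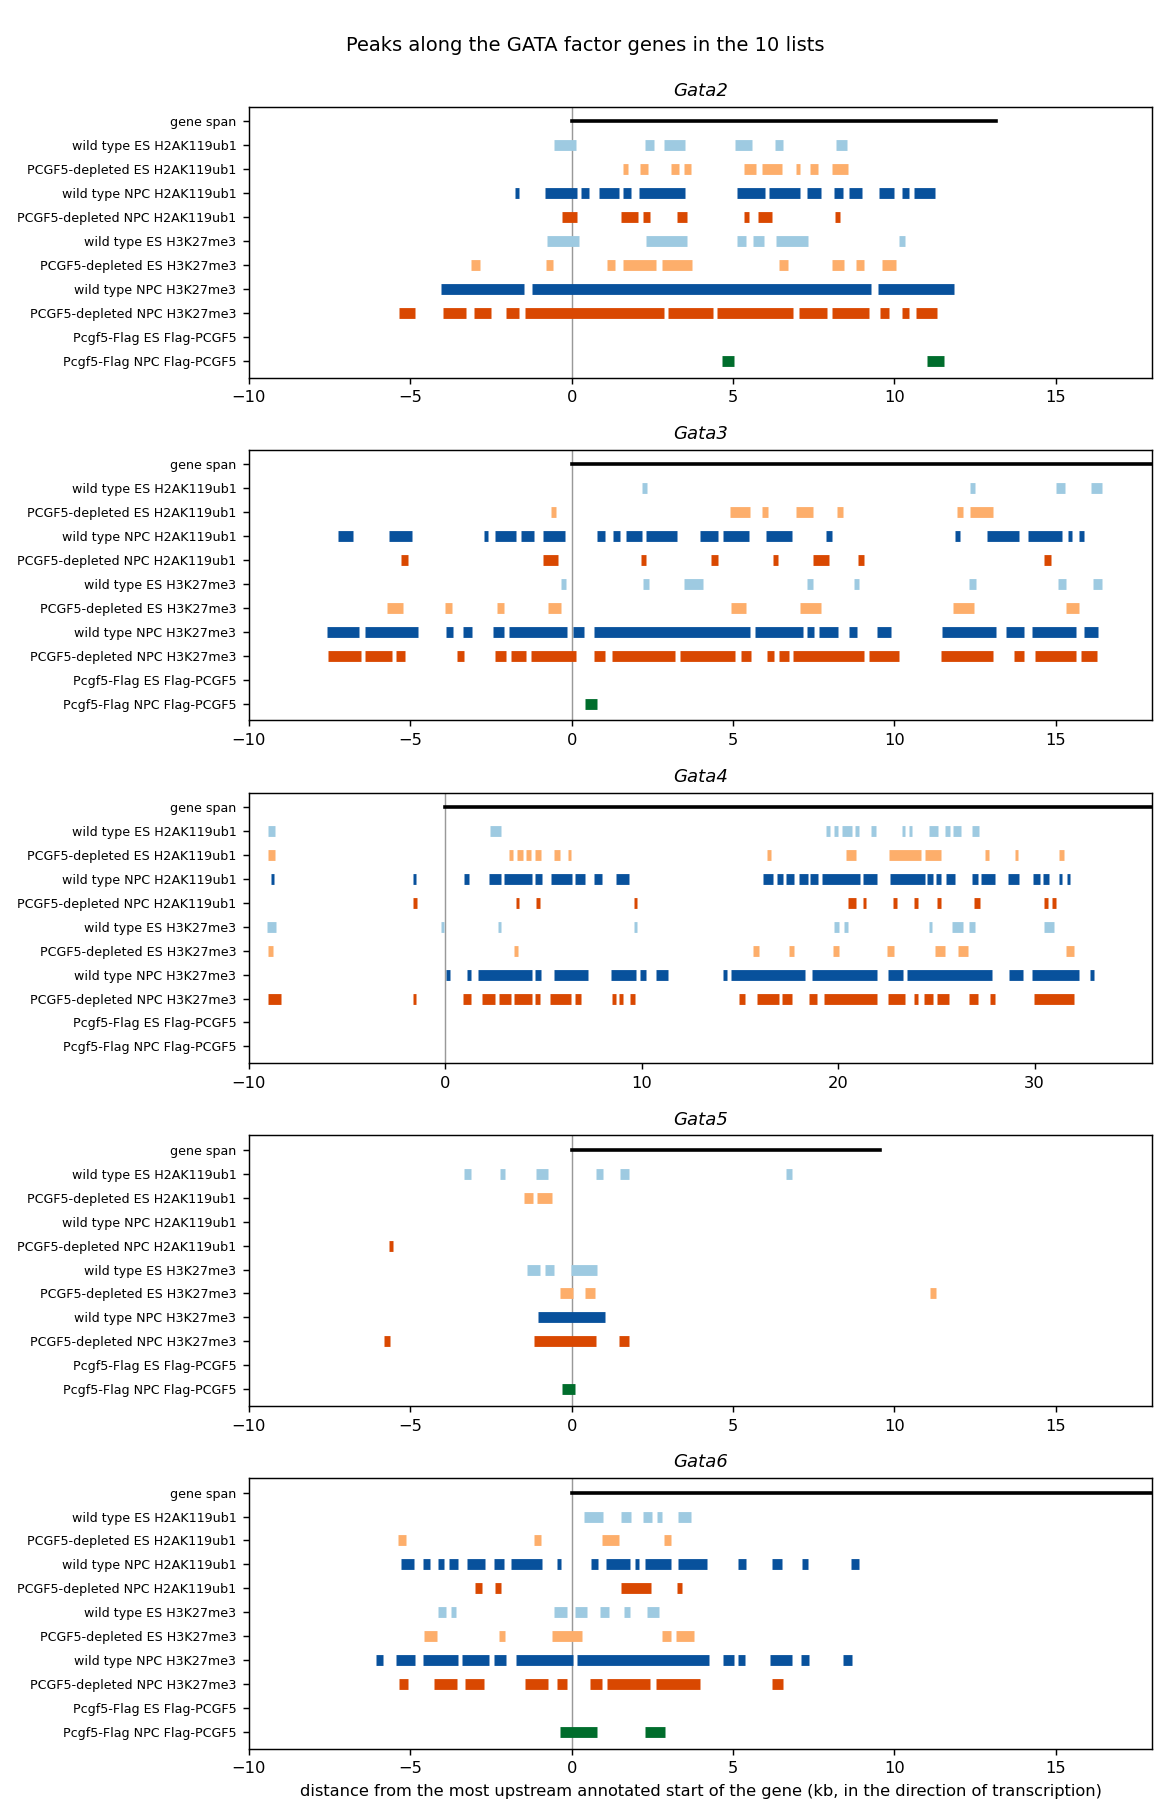
Peaks of the 10 lists (lines, each 1 library) along each gene, against the distance in kb from its most upstream start, positive in the direction of transcription (linear axes; Gata4 has a longer one, and the black gene span runs past the edge for Gata3, Gata4 and Gata6). At Gata2 the widest H3K27me3 peak of wild type NPC, 10512 bp long, is divided into several peaks in PCGF5-depleted NPC, and H2AK119ub1 peaks of wild type NPC outnumber those of PCGF5-depleted NPC at all genes except Gata5.

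The marks extended beyond the promoters in NPC. Within 50000 bp of the first start, wild type NPC had 28 H2AK119ub1 peaks with 15720 bp at Gata4, 19 with 9866 bp at Gata3, 14 with 7934 bp at Gata2 and 17 with 6897 bp at Gata6. PCGF5-depleted NPC had 12 peaks with 2726 bp, 8 with 2128 bp, 7 with 2235 bp and 4 with 1503 bp at the same genes. Each of the 4 totals was lower after depletion. So was the length of the whole H2AK119ub1 list, which went from 2332972 to 1123578 bp. The 4 totals include the promoter peaks. The lengths left without the promoter peaks given above were lower as well at each of the 4 loci. At Gata2, all H2AK119ub1 peaks of wild type NPC in this range were centred between -1695 and 10938 bp from the first start, so that the last one was centred within the gene.

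H2AK119ub1 in NPC lay within H3K27me3. In wild type NPC 92.8% of the H2AK119ub1 base pairs of the 5 genes were in H3K27me3 peaks, against 88.7% over all loci, and 56.3% of the H3K27me3 base pairs were in H2AK119ub1 peaks, against 18.3%. In PCGF5-depleted NPC the first share was 91.9%, against 83.4%, and the second 15.9%, against 10.8%. The H3K27me3 domains of these genes thus carried called H2AK119ub1 over a smaller share of their length after depletion. In wild type ES 47.7% of the H2AK119ub1 base pairs were in H3K27me3 peaks, against 40.7% over all loci.

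PCGF5 itself was called at 4 of the 5 genes in NPC, against 13.7% of all genes, and at 0 of 5 in ES, against 0.787%. The 4 genes were Gata2, Gata3, Gata5 and Gata6, each with 1 promoter peak, and they all count as higher in NPC, as do 95.1% of genes marked at either stage, with 3.97% lower. Since the ES list held far fewer peaks, this says little about these genes in particular. The Gata2 peak, of 391 bp with a fold of 2.33, lay across the proximal start, and its first 122 bp fall within the Gata2 sequence printed above. The Gata3 peak had 392 bp and a fold of 2.31 and lay in an intron, 596 bp downstream of the distal start. It also spanned the start of the protein-coding 9230102O04Rik at 9811167, so it cannot be given to Gata3 alone. The Gata5 peak had 408 bp and a fold of 1.92, at the 12.8 percentile of its list. Gata6 had the longest, 1131 bp with a fold of 2.45, and a second peak of 642 bp in its coding sequence 2588 bp downstream.

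These were moderate or low values within their list, at percentiles between 12.8 and 67.4, and with the higher-scoring 50% of peaks 2 of the 5 genes were left. With the NPC list limited to the number of peaks of the ES list, 0 of the 5 were left, as in ES. No Flag-PCGF5 peak was called over the Gata4 gene body or within 50000 bp of its most upstream start. Gata4 was also the gene with the longest H2AK119ub1 loss over its body, and a link between these was not tested. Of the Flag-PCGF5 base pairs at the 4 other genes, 87.7% were in H3K27me3 peaks of wild type NPC, against 7.19% over all loci, and 32.1% in H2AK119ub1 peaks, against 0.904%. The H3K27me3 share was 100% at Gata2 and Gata5 and 92.3% at Gata6, but 24.7% at Gata3. H3K27me3 itself filled 97.4% of the promoter window at Gata2, 89.0% at Gata6, 68.8% at Gata3 and 40.6% at Gata5. Only 15.7% of all genes had any promoter peak of it, so the share over all loci is not a matched comparison. A high share at these genes was likely wherever the Flag-PCGF5 peak lay. Gata5 lay near a block of very high Flag-PCGF5 values, with 23 peaks of fold 8 or more within 2.5 Mb and a highest fold of 324. The nearest of these was 264130 bp away, and the other 4 genes had none within 2.5 Mb. What part this block had in the Gata5 peak was not tested.

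A list of 30 partners and targets of GATA factors was taken along, of which 28 were found in the annotation used. H2AK119ub1 was at 12 of the 28 in wild type ES, 15 in PCGF5-depleted ES, 16 in NPC of the wild type and 13 in PCGF5-depleted NPC. The shares of all genes were 6.69%, 5.96%, 4.98% and 4.17% in the same order. In NPC 12 of the 17 genes marked in either genotype were lower by at least 2 times after depletion and 1 was higher, against 51.8% and 29.0% of all genes marked in either list. Their summed H2AK119ub1 covered length went from 33071 bp in wild type to 11122 bp in PCGF5-depleted NPC, so such a fall was not particular to the 5 GATA factors. From ES to NPC 16 of 19 were higher in wild type cells, against 35.7%, and 4 of 17 in PCGF5-depleted cells, against 26.7%. H3K27me3 was at 21 of 28 in wild type NPC and 20 of 28 in PCGF5-depleted NPC, against 15.7% and 15.4% of all genes. Of the 22 marked in either, 5 were lower by at least 2 times and 1 was higher, against 34.1% and 23.7%.

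The 3 genes of that list with the most H3K27me3 in wild type NPC were Hand1, a heart and trophoblast factor, Tal1, a blood factor that works in complexes with GATA proteins, and Cdx2, which specifies trophoblast. Hand1 had H3K27me3 over 7916 bp in NPC of the wild type and 1456 bp in PCGF5-depleted NPC, with H2AK119ub1 over 1478 and 297 bp. Tal1 had H3K27me3 over 7107 and 4318 bp, with H2AK119ub1 over 4015 and 1420 bp. Cdx2 had H3K27me3 over 6384 and 3202 bp, with H2AK119ub1 over 3555 and 2336 bp. Since these were picked for a high value in wild type NPC, a lower H3K27me3 value after depletion is partly built in and is not a result. Nkx2-5, the next in that order and named after its values were seen, had H3K27me3 over 5413 and 5696 bp. Flag-PCGF5 was called at 3 of the 28 genes in NPC, against 13.7% of all genes. These were Ldb1, a bridging protein of GATA complexes, with 3464 bp and no histone peak in any list, Pdgfra, a receptor of primitive endoderm, with 444 bp, and Elf5, a trophoblast factor, with 218 bp.

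Marker genes were looked at as a check of the labelled cell types, although only peaks and no expression were measured. Over all genes, H3K27me3 was at 13.4% in wild type ES and at 15.7% in wild type NPC. It was at 1 of 5 ES markers in wild type ES, namely Esrrb, and at 3 of 5 in wild type NPC. Among 4 neural markers, with Sox1 not found in the annotation, it was at 2 in wild type ES and 3 in wild type NPC. Pax6 had 4348 and 18187 bp, Pou3f2 901 and 1953 bp, Nes 0 and 1252 bp, and Sox2 none. The marked neural genes thus had more H3K27me3 length in NPC. At Nes and Pou3f2 the paper reports a reduction in NPC by ChIP-qPCR, which measures signal rather than covered length. H2AK119ub1 was at 2 of these 4 in wild type ES and at 1 in wild type NPC, against 6.69% and 4.98% of all genes. Of 4 primitive endoderm markers, 3 carried H3K27me3 in wild type cells of both stages. These lists cannot show what share of cells had taken the neural fate.

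The pattern of each gene over all 10 lists was compared with that of every other protein-coding gene by the Bray-Curtis similarity of covered lengths, where 1 is identical. The genes most like Gata2 were Nfix and Skor1, at 0.91 and 0.90. Gata3 was most like Evx1 and Zic1, at 0.87 and 0.86, and Gata4 most like Tal1 and Hoxb7, at 0.92 and 0.91. Gata5 was nearest to Jph3 and 2810032G03Rik, both at 0.89, and Gata6 to Nr4a2 and Zfp316, at 0.90 and 0.87. Among the family itself Gata4 and Gata6 were closest, at 0.85, and Gata2 and Gata5 farthest apart, at 0.37. All these similarities rest on the same 10 libraries and describe them only.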

How the data were processed

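H2AK119ub1, H3K27me3 and Flag-PCGF5 ChIP-seq peak lists of 10 libraries (1 per group) were used as deposited, and groups came from the labels. Histone chromatin had been digested with micrococcal nuclease and lightly fixed, and Flag chromatin had been doubly crosslinked and sonicated. The submitters' notes name Bowtie2, MACS2 2.1.0, bedtools and mm9. Each library was called separately, so the length of a list can also follow depth and background. Spike-in scaling does not enter the lists.

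The deposited lists give per peak a score, a fold enrichment ratio over background, and −log10 p-values and q-values. In all lists the score was within 1 of 10 times the −log10 p-value (histone marks) or the −log10 q-value (Flag-PCGF5). Folds are on no common scale between lists and were compared only as percentiles of their own list.

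Start sites came from GENCODE M1 on NCBIM37, the assembly behind mm9, with coordinates counted from 1. A peak counted at a promoter with its centre within 2500 bp of a protein-coding start. A gene was called lower or higher when its covered length differed by at least 2 times, a length of 0 included, among genes marked in either list. Alternatives were a 1000 bp window, base pairs inside the window, the gene body, the higher-scoring 50% of peaks, q-values up to 0.05, and equal peak numbers. Members and lists were chosen with earlier results of these data known. Named genes were all members, the 3 partners or targets with most H3K27me3 in wild type NPC, those with a Flag-PCGF5 peak, and the 2 genes most similar to each member, leaving out genes that start within 5000 bp. Counting was tested on simulated data (200 of 200 genes with planted peaks recovered, 0 other genes marked). The planted genes had a single start site far from any other, so genes with several starts, such as Gata2 to Gata5, were not covered. Python 3.11.15, numpy 2.4.6 and pandas 2.3.3 were used.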

Additional observations from a re-analysis of the deposited data

Results flagged for a closer look

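At Gata3 the H2AK119ub1 covered length changed in opposite directions in the 2 stages. PCGF5-depleted minus wild type was 735 bp in ES and -3124 bp in NPC. The same values, read from ES to NPC, gave 3587 bp in wild type and -272 bp in PCGF5-depleted cells.

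Gata4 H2AK119ub1 went up by 1551 bp from ES to NPC in wild type and changed by -23 bp in PCGF5-depleted cells. Over the 5 genes together the change was 8576 bp in wild type and -582 bp in PCGF5-depleted cells. The second value is small beside the lengths it comes from, 5511 and 4929 bp. With equal numbers of top-scoring peaks the log2 ratio from ES to NPC was 1.46 in wild type and 1.16 in PCGF5-depleted cells.

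At Gata5 the H3K27me3 covered length of PCGF5-depleted minus wild type was -782 bp in ES and 133 bp in NPC. With 1 library per group, none of these differences between stages or genotypes was tested.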

How the results depend on the processing

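Of 108 alternative values of the counts and summed ratios, 93 stayed close to those reported, 10 moved by over 1.5 times and 5 changed sign. Genes marked came to 3 for H2AK119ub1 in PCGF5-depleted ES with a 1000 bp window, and for Flag-PCGF5 in NPC to 2 with the higher-scoring 50% of peaks and 0 with equal peak numbers. The summed H2AK119ub1 log2 ratio of genotypes in ES was -1.53 (1000 bp), -1.18 (higher-scoring 50%), -1.18 (equal numbers) and 0.25 (gene body), and in NPC it was -2.24 over the gene body. The NPC to ES ratio of H2AK119ub1 in wild type was 0.45 (1000 bp) and 1.82 (gene body), and in PCGF5-depleted cells it became 0.26 (1000 bp), 0.42 (higher-scoring 50%) and 1.16 (equal numbers). For H3K27me3 the wild type NPC to ES ratio was 2.48 and the ES genotype ratio 0.06, both over the gene body.

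For single genes, 13 of 106 alternatives changed sign. In ES these were, over the gene body, Gata2 H2AK119ub1 (0.30) and H3K27me3 (0.12) and Gata4 H2AK119ub1 (0.45) and H3K27me3 (0.27, and 0.11 with equal numbers), Gata5 H2AK119ub1 (1.34 with the higher-scoring 50% and with equal numbers), and Gata6 H3K27me3 (0.25 with 1000 bp and with the higher-scoring 50%). In NPC these were Gata3 H3K27me3 (-0.05 inside the window and over the gene body) and Gata5 H3K27me3 (-0.13 with 1000 bp and with equal numbers). The cause was not tested. No paired analysis was possible because each group had only 1 library. Depth is unknown, so short peaks may be missed in any list.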
